A study of Mus musculus with 16 samples.

Results

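The 7 genes Ptpn13, Aff1, Klhl8, Hsd17b11, Nudt9, Sparcl1 and Pkd2 lie next to Dmp1, the gene deleted in a pair of the 4 mouse genotypes of this study, and were followed in cultured bone marrow cells for effects in cis of the deletion or of the DNA that flanks it. They were chosen by name and place on chromosome 5, with no measured value in the rule, from the 32285 genes of the count tables. In the GRCm38 annotation all 7 start within 1 Mb of the start of Dmp1, at distances of 88.9 to 777 kb. The other 22 genes that start in this stretch were tallied beside them.

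Dmp1 codes for dentin matrix protein 1, an acidic matrix protein of osteoblasts, osteocytes and teeth, and sits in a cluster of related mineralised matrix genes (the SIBLING genes Dspp, Dmp1, Ibsp, Mepe and Spp1). A knockout allele is made in embryonic stem cells by inserting or removing sequence, and a stretch of the stem cells' own chromosome travels with it through backcrossing. Neighbours of a deleted gene may therefore differ from control mice through lost regulatory sequence, through the inserted sequence, through variants of the flanking strain, or indirectly through the altered state of the cells.

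Bone marrow was taken from mice aged 12 weeks, its stromal cells were grown for 21 days in medium with 10 mM β-glycerophosphate, and the RNA was counted in single cells as unique molecular identifiers (UMIs) with a 3′ droplet assay. In the cross that gave all 4 genotypes the mice carried Fgf23 fl/fl: WT was Dmp1+/+ without Dmp1-cre, Fgf23cKO was Dmp1+/+ with it, Dmp1KO was Dmp1-/- without it, and Dmp1KO/Fgf23cKO was Dmp1-/- with it. A further cross, with wild-type Fgf23 and with Dmp1-cre, served the study as a control for the transgene. The Dmp1 allele was the global knockout Dmp1tm1Mis on C57BL/6J, and the Dmp1-cre transgene, driven by the Dmp1 promoter, removes floxed Fgf23 in osteocytes and mature osteoblasts. The paper calls the mice with the transgene C57BL/6J too, but its name for the line, B6N.FVB-Tg(Dmp1-cre), holds the strains B6N and FVB. The strain of the stem cells behind the Dmp1 allele, the length of foreign DNA around it and the extent of the deleted sequence are not given in the sources used here. The paper counts as many mice as tagged cultures in each genotype, while the labels tie no culture to a mouse, so the spread between cultures behind the p values may be technical in part.

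Of 16 listed samples, 15 with 17793 cells were analysed, and the matrix of the first Dmp1KO culture was not analysed here. The tests used 11 cultures whose cells carried a tag of their own: 3 WT, 3 Fgf23cKO, 2 Dmp1KO and 3 Dmp1KO/Fgf23cKO. Cells were clustered anew, and fixed markers named 7 clusters of 11336 cells myeloid-like and 4 clusters of 1680 cells stromal-like, while 4777 cells stayed unnamed. Counts were summed per culture and class and are given as CPM (counts scaled to a common total of UMIs of that culture and class), which in a 3′ assay compare a gene between samples but not 1 gene with another. The printed CPM carry no scaling factors, whereas the fold changes are after TMM scaling, with factors of 0.841 to 0.874 in myeloid-like sums of Dmp1KO and 1.01 to 1.06 in those of the other genotypes. Sums held 937716 to 6649908 UMIs in stromal-like and 6535345 to 50535063 in myeloid-like cells. All cells of a genotype ran in 1 droplet reaction, and an effect of the reaction cannot be told apart from that of the genotype. The median UMIs per cell ranged from 7137 to 7275.5 in WT, 29752.5 to 34988 in Fgf23cKO, 20016.5 to 22186 in Dmp1KO and 32378 to 33881 in Dmp1KO/Fgf23cKO cultures, and 35 barcodes occurred in libraries of more than 1 genotype. The part of depth and reaction in the results was not tested.

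From low to high coordinates, the 7 genes run as follows on GRCm38, all protein coding. Ptpn13 (chr5:103425192-103598303, plus strand) starts 777 kb before Dmp1, and Aff1 (chr5:103692374-103855322, plus strand) starts at -510.2 kb from it. Klhl8 (chr5:103861973-103911259, minus strand), Hsd17b11 (chr5:103989762-104021919, minus strand), Nudt9 (chr5:104046306-104065379, plus strand) and Sparcl1 (chr5:104079111-104113733, minus strand) follow. Dmp1 itself spans chr5:104202613-104214102 on the plus strand. Pkd2 (chr5:104459450-104505819, plus strand) is the 1 gene of the 7 above Dmp1, and the SIBLING genes Ibsp, Mepe and Spp1 lie between the pair. The annotation overlaps Ptpn13 with the antisense gene Gm42620 and Sparcl1 with the antisense gene Gm26703, of which Gm42620 held 20 UMIs in stromal-like and 4 in myeloid-like cells and Gm26703 held 1 in stromal-like cells.

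Start regions of 300 bases (250 before to 50 after a RefSeq transcript start, GRCm38.p6) were found for 5 of the 7 genes, in 6 regions. Those of Ptpn13, Nudt9 and Dmp1 are shown because Ptpn13 and Nudt9 carry the clearest differences below, and Dmp1 is the gene they flank. Capitals mark each CG.
Ptpn13, chr5:103424942-103425241, plus strand: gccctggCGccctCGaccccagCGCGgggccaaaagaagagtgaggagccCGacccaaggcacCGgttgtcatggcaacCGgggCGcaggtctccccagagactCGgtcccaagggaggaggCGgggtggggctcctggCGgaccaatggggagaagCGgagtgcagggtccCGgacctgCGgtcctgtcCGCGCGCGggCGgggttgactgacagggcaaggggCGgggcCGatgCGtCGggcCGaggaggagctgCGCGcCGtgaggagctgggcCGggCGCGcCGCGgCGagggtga
Nudt9, chr5:104046614-104046913, plus strand: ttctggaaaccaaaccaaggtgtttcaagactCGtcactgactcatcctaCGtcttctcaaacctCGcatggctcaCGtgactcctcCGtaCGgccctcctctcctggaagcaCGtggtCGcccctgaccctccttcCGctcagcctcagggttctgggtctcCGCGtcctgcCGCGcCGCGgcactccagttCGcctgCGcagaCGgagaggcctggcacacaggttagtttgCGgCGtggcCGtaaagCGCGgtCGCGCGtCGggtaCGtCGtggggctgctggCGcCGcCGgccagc
Dmp1, chr5:104202367-104202666, plus strand: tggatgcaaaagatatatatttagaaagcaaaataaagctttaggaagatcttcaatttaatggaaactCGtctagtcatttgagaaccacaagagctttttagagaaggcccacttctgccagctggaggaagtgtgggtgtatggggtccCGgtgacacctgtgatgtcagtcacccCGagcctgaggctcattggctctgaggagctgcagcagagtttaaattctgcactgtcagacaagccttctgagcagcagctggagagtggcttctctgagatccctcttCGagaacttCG
The Ptpn13 region held 33 CG and 74% G and C, the Nudt9 region 32 CG and 65%, and the Dmp1 region 5 CG and 47.3%. Over all 32851 start regions of the table the median was 7 CG (quartiles 3 and 20) and 52.7% G and C. The 6 regions of the flanking genes held 9 to 40 CG, all above that median, with the fewest in Pkd2 (9) and Hsd17b11 (18). None of the 6 held TATAAA on either strand, against 13.6% of all regions with it. A match or its absence describes these letters only.

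The deleted gene was low where the labels say so. In stromal-like cells Dmp1 stood at 305, 445 and 732 CPM in the WT cultures and at 198, 368 and 58.3 in the Fgf23cKO cultures. It stood at 0 and 0.994 CPM in the Dmp1KO cultures and at 15, 7.07 and 7.45 in the Dmp1KO/Fgf23cKO cultures. Each of the 5 deleted cultures lay below each of the 6 intact ones. The 149 UMIs of the Dmp1KO/Fgf23cKO cultures were not 0, and 120 of them lay in the osteoblast clusters at 22.7 CPM. In myeloid-like cells the intact cultures held 112 Dmp1 UMIs and the deleted cultures 0, which allows up to 0.0192 CPM.

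In the comparison of the deletion over both pairs of genotypes (Dmp1KO with Dmp1KO/Fgf23cKO against WT with Fgf23cKO), 2 of 6 flanking genes tested in stromal-like cells rose and none fell. They were Ptpn13 and Aff1. In myeloid-like cells 4 of 5 tested changed, of which Nudt9 rose and Hsd17b11, Klhl8 and Aff1 fell. A gene was called at an adjusted p under 0.1 (edgeR quasi-likelihood test, Benjamini-Hochberg over all genes tested). Over all 12428 genes of stromal-like cells 16.4% were called, 7.39% higher and 9.02% lower. Over all 13487 genes of myeloid-like cells 59.7% were called, 30.7% higher and 28.9% lower, so the 4 of 5 stand against a background in which most genes were called. The median log2 fold change of the flanking genes was 0.0064 in stromal-like and -0.18 in myeloid-like cells, against -0.014 and 0.0041 over all genes tested. Sparcl1 was too low for the test in both classes, and Ptpn13 in myeloid-like cells.

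**Figure D1:**
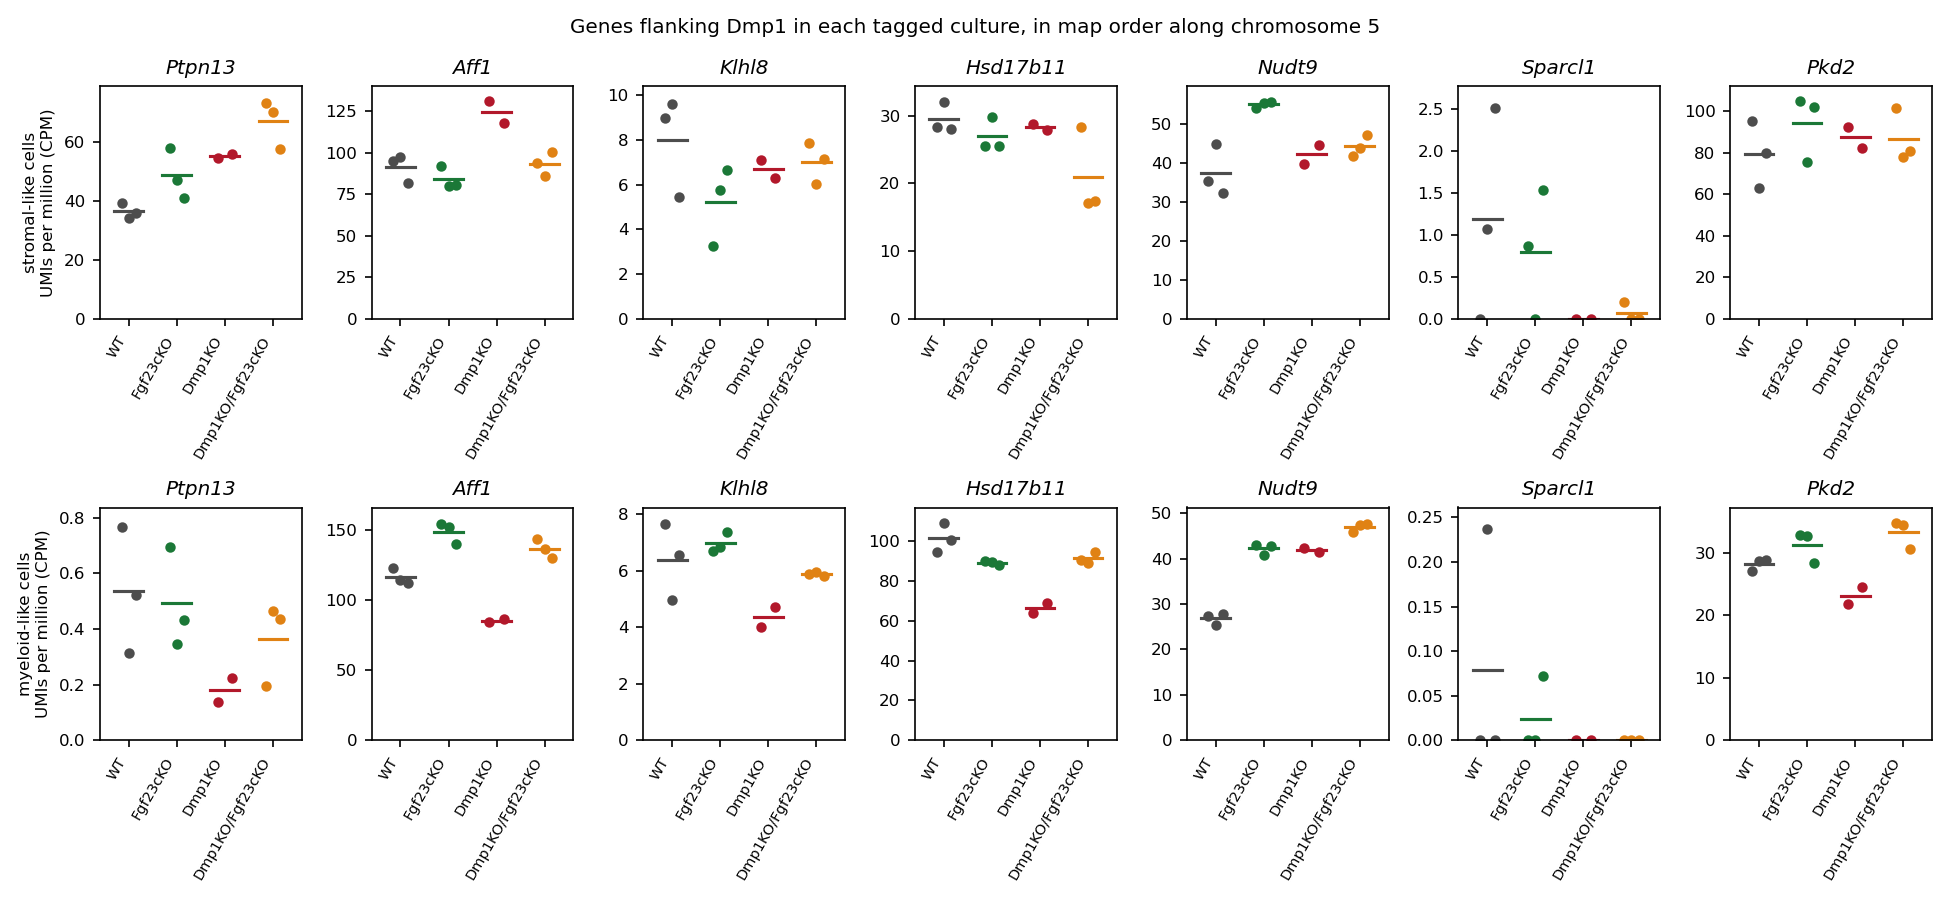
CPM of the 7 genes in stromal-like (top) and myeloid-like cells (bottom), 1 point per tagged culture and a bar at the genotype mean, genes in map order. Deleted and intact cultures overlap for every gene, Ptpn13 of stromal-like cells lies at 54.8 to 73.4 in deleted and 34.1 to 58.1 in intact cultures, and Nudt9 of myeloid-like cells is low in WT alone.

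Ptpn13, a large non-receptor tyrosine phosphatase with PDZ and FERM domains, had the largest fitted log2 fold change of the 6 flanking genes tested in stromal-like cells. WT cultures held 39.4, 34.1 and 36.1 CPM and Fgf23cKO cultures 58.1, 47.3 and 40.9 CPM. Dmp1KO cultures held 54.8 and 56.0 CPM, and Dmp1KO/Fgf23cKO cultures 73.4, 70.2 and 57.9 CPM. Within each pair of genotypes the deleted cultures were the higher ones, with 1 overlap at 57.9 against 58.1 CPM. The log2 fold change was 0.45 (SE 0.12, edgeR adjusted p = 0.0321) over both pairs. The size was alike in the pairs, 0.49 (SE 0.18, edgeR adjusted p = 0.0862) in Dmp1KO against WT and 0.42 (SE 0.15, edgeR adjusted p = 0.217) in Dmp1KO/Fgf23cKO against Fgf23cKO. By CPM of single cultures, the median was 57.9 in deleted and 40.2 in intact cultures. The mean of log2(CPM + 1) was 5.98 against 5.43 (exact two-sided permutation test, p = 0.0130, 0.139 adjusted over 14 such tests). The smallest possible p of that test is 0.00433. The call over both pairs was lost without Dmp1KO replicate 3 (0.44, adjusted p = 0.113) and with untagged cells added (0.30, adjusted p = 0.108), and the call of Dmp1KO against WT was lost in 7 of 11 such omissions.

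In myeloid-like cells Ptpn13 was near 0. It had 71 UMIs in all, 4 to 10 per culture and 0.139 to 0.765 CPM, against 34.1 to 73.4 CPM in stromal-like cells. The 11 cultures were all higher in stromal-like cells, by a median ratio of 133. For each 1000 UMIs of the collagen gene Col1a1 there were 4.99 of Ptpn13 in myeloid-like and 3.32 in stromal-like cells, and by culture the ratio ran from 1.37 to 18.3 in myeloid-like and from 1.2 to 12 in stromal-like cells. Within stromal-like cells Ptpn13 stood at 59.99 CPM in the fibroblastic cluster and at 59.1 and 16.6 in the osteoblast clusters, against 11.4 in the contractile cluster. The contractile and the lower osteoblast cluster had median UMIs per cell of 2757 and 1015. Those of the fibroblastic and the other osteoblast cluster were 52112 and 60976. Myeloid markers together held 9219 and 23626 CPM in the first pair, against 3682 and 4195. The part of depth and myeloid RNA was not tested. The unnamed clusters 17 and 18 held 42.0 and 58.8 CPM.

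Aff1, a scaffold of the super elongation complex that frees paused RNA polymerase, was called in both classes with opposite signs. In stromal-like cells WT cultures held 94.8, 97.0 and 81.8 CPM and Fgf23cKO cultures 91.9, 79.6 and 80.3. Dmp1KO cultures held 131 and 118 CPM, above all others, and Dmp1KO/Fgf23cKO cultures 93.5, 85.7 and 100.3, in the range of the intact ones except for the last. The log2 fold change was 0.23 over both pairs (SE 0.08, edgeR adjusted p = 0.0851), 0.35 in Dmp1KO against WT (SE 0.12, adjusted p = 0.0638) and 0.12 in Dmp1KO/Fgf23cKO against Fgf23cKO (SE 0.10, adjusted p = 0.644). Osteoblast clusters held 9 of 198 stromal-like Dmp1KO cells against 113 of 294 WT cells, and in WT Aff1 stood at 49.9 CPM in those clusters and 125 in the other stromal-like cells. Within those clusters Dmp1KO held 92.8 CPM (36 UMIs, interval for counting error 65.0 to 128), against an interval of 41.2 to 59.9 in WT. Fgf23cKO held 52.1 and Dmp1KO/Fgf23cKO 58.5 CPM there. Without the osteoblast clusters the value was 0.10 over both pairs (edgeR adjusted p = 0.549), with Dmp1KO at 126 against 125 CPM in WT. The call was also lost in 8 of the 11 omissions of a culture, with DESeq2 (adjusted p = 0.118) and at a threshold of 0.05. A replicate block, untagged cells added, classes set cell by cell and the flanking genes out of clustering lost it as well.

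In myeloid-like cells Aff1 ran the other way. WT cultures held 122, 114 and 112 CPM, Fgf23cKO cultures 154, 152 and 139. Dmp1KO cultures held 84.2 and 86.2 CPM, below all others, and Dmp1KO/Fgf23cKO cultures 143, 136 and 129. The log2 fold change was -0.18 over both pairs (SE 0.04, edgeR adjusted p = 0.00184), -0.19 in Dmp1KO against WT (SE 0.06, adjusted p = 0.00995) and -0.16 in Dmp1KO/Fgf23cKO against Fgf23cKO (SE 0.05, adjusted p = 0.0467). With library totals in place of TMM scaling the value of Dmp1KO against WT was -0.45 (edgeR adjusted p = 2.67e-05). The call in Dmp1KO/Fgf23cKO against Fgf23cKO was lost in 4 of 11 omissions of a culture and under 5 of 12 other alternatives (library totals, no filter, DESeq2, untagged cells added and all cells of a culture, -0.14 to -0.11, adjusted p of 0.111 to 0.185). Aff1 was the 1 flanking gene called in the same direction in both pairs in myeloid-like cells (1 of 5), where 9.06% of all genes tested were, and no flanking gene (0 of 6) was in stromal-like cells, where 0.426% were.

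Klhl8, a Kelch adaptor that brings substrates to a Cul3 ubiquitin ligase, was sparse. In stromal-like cells 81 UMIs gave 3.27 to 9.60 CPM in intact cultures and 139 UMIs gave 6.02 to 7.87 CPM in deleted ones, and the log2 fold change was 0.07 (SE 0.24, edgeR adjusted p = 0.891). In myeloid-like cells WT cultures held 7.65, 4.97 and 6.54 CPM and Fgf23cKO cultures 6.70, 6.82 and 7.37. Dmp1KO cultures held 4.0 and 4.71 CPM and Dmp1KO/Fgf23cKO cultures 5.88, 5.93 and 5.80. The deleted cultures were the lower ones but for the second WT culture. Klhl8 fell by 0.28 on the log2 scale over both pairs (SE 0.10, edgeR adjusted p = 0.0313), with -0.27 (adjusted p = 0.129) and -0.29 (adjusted p = 0.147) in the separate pairs. The call was lost without Dmp1KO replicate 2 (-0.22, edgeR adjusted p = 0.130), with no filter and with all cells of a culture. With library totals Dmp1KO against WT gave -0.51 (edgeR adjusted p = 0.00790).

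Hsd17b11, a short-chain dehydrogenase of lipid droplets, was higher in myeloid-like than in stromal-like cells in each of the 11 cultures, with a median stromal to myeloid ratio of 0.294. In myeloid-like cells WT cultures held 94.6, 109 and 100.2 CPM and Fgf23cKO cultures 89.7, 89.5 and 88.0. Dmp1KO cultures held 63.9 and 68.9 CPM, apart from all others. Dmp1KO/Fgf23cKO cultures held 90.4, 88.6 and 94.3, of which the second lay in the range of Fgf23cKO and the others above it. The log2 fold change was -0.18 over both pairs (SE 0.04, edgeR adjusted p = 0.00188), -0.36 in Dmp1KO against WT (SE 0.06, adjusted p = 1.29e-04) and -0.0046 in Dmp1KO/Fgf23cKO against Fgf23cKO (SE 0.06, adjusted p = 0.966). With library totals Dmp1KO against WT gave -0.61 and was called as well. Summed over all cells of a culture the value over both pairs was -0.09 (edgeR adjusted p = 0.232). In stromal-like cells the same cultures held 25.5 to 32.0 CPM when intact and 17.1 to 28.8 when deleted, and the log2 fold change was -0.27 (SE 0.15, edgeR adjusted p = 0.269). The low stromal-like values were those of Dmp1KO/Fgf23cKO replicates 2 and 3, at 17.1 and 17.5 CPM, and the gene was called as lower without replicate 1 of that genotype (-0.41, adjusted p = 0.0524) and with untagged cells added (-0.36, adjusted p = 0.0448).

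Nudt9, a mitochondrial pyrophosphatase of ADP-ribose, had the largest fitted log2 fold change of the 5 flanking genes tested in myeloid-like cells. WT cultures held 27.4, 25.4 and 27.8 CPM. Fgf23cKO cultures held 43.1, 40.9 and 42.8 CPM, Dmp1KO cultures 42.4 and 41.5, and Dmp1KO/Fgf23cKO cultures 45.9, 47.4 and 47.7. The WT cultures thus stood apart from all 8 others, which lay between 40.9 and 47.7 CPM. The log2 fold change was 0.51 over both pairs (SE 0.04, edgeR adjusted p = 3.71e-07), 0.90 in Dmp1KO against WT (SE 0.06, adjusted p = 2.68e-08) and 0.12 in Dmp1KO/Fgf23cKO against Fgf23cKO (SE 0.06, adjusted p = 0.151). The last value passed the threshold under 4 of 12 alternatives (RLE factors, library totals, classes set cell by cell and the wide myeloid class, 0.14 to 0.15) and without Dmp1KO replicate 2 (0.14, adjusted p = 0.0885). The value of Dmp1KO against WT ran from 0.65 to 1.01 over the 12 alternatives and was called in each. Mean CPM, which carry no scaling factors, were 41.9 in Dmp1KO and 26.9 in WT. In stromal-like cells the order was another. WT cultures held 35.3, 44.8 and 32.3 CPM, Fgf23cKO cultures 54.0, 55.3 and 55.7, Dmp1KO cultures 39.7 and 44.7, and Dmp1KO/Fgf23cKO cultures 41.9, 43.9 and 47.3. Fgf23cKO was above all others there, and the deletion gave -0.11 (SE 0.10, edgeR adjusted p = 0.482).

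Pkd2, the cation channel polycystin-2, was not called in either class. In stromal-like cells intact cultures held 62.9 to 105 CPM (median 87.6) and deleted cultures 92.6, 82.5, 102, 78.2 and 80.8, with a log2 fold change of -0.06 (SE 0.12, edgeR adjusted p = 0.808). In myeloid-like cells WT cultures held 27.1, 28.6 and 28.8 CPM, Fgf23cKO cultures 32.8, 32.6 and 28.4, Dmp1KO cultures 21.8 and 24.4, and Dmp1KO/Fgf23cKO cultures 34.8, 34.4 and 30.6. The deleted cultures enclosed the intact ones on both sides. The log2 fold change over both pairs was 0.01 (SE 0.05, edgeR adjusted p = 0.899), and with library totals in place of TMM scaling that of Dmp1KO against WT moved from -0.04 (adjusted p = 0.656) to -0.29 (adjusted p = 0.00767). Pkd2 was higher in stromal-like cells in 11 of 11 cultures, by a median ratio of 2.92.

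Sparcl1, the matricellular protein hevin and the nearest of the 7 to Dmp1 by its start, gave 32 UMIs in 24 of the 17793 cells. In stromal-like cells 14 UMIs came from 4 of 6 intact cultures, 0.969 CPM with an exact 95% Poisson interval of 0.530 to 1.63. The deleted cultures held 1 UMI in 1 of 5 cultures, 0.0491 CPM with an interval of 0.00124 to 0.274. The intervals cover counting error only and do not overlap, but by culture the values did (exact two-sided permutation test, p = 0.0606, 0.139 adjusted over 14 tests), since 2 intact cultures held none. In osteoblast clusters of WT there were 6 UMIs in 113 cells, and in those of Dmp1KO/Fgf23cKO 0 in 62 cells, which allows up to 0.568 CPM. Myeloid-like cells held 4 UMIs when intact and 0 when deleted.

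The pairs of genotypes differed in part. A test of the difference between the deletion effect with and without Fgf23 deletion called 2 of 5 flanking genes in myeloid-like cells, where 62.7% of all genes were called. Nudt9 differed by -0.78 (SE 0.08, edgeR adjusted p = 2.91e-06) and Hsd17b11 by 0.36 (SE 0.08, adjusted p = 0.00199), since both changed in Dmp1KO against WT and neither was called in the other pair. Over 12 alternatives the difference of Nudt9 ran from -0.89 to -0.49 and was called in each. In stromal-like cells none of 6 was called, against 18.5% of all genes, and Nudt9 had the lowest p at -0.44 (SE 0.19, edgeR unadjusted p = 0.0380, adjusted p = 0.154). In Dmp1KO against WT alone, 2 of 6 were called in stromal-like cells (background 25.1%) and 3 of 5 in myeloid-like cells (background 69.6%). In Dmp1KO/Fgf23cKO against Fgf23cKO, 0 of 6 were called in stromal-like cells by edgeR (background 2%) and 1 of 5 in myeloid-like cells (background 29.7%). Of the 6, Nudt9 (-0.34) and Ptpn13 (0.42) had an edgeR unadjusted p under 0.05 in that pair, as did 1866 of all 12428 genes.

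**Figure D2:**
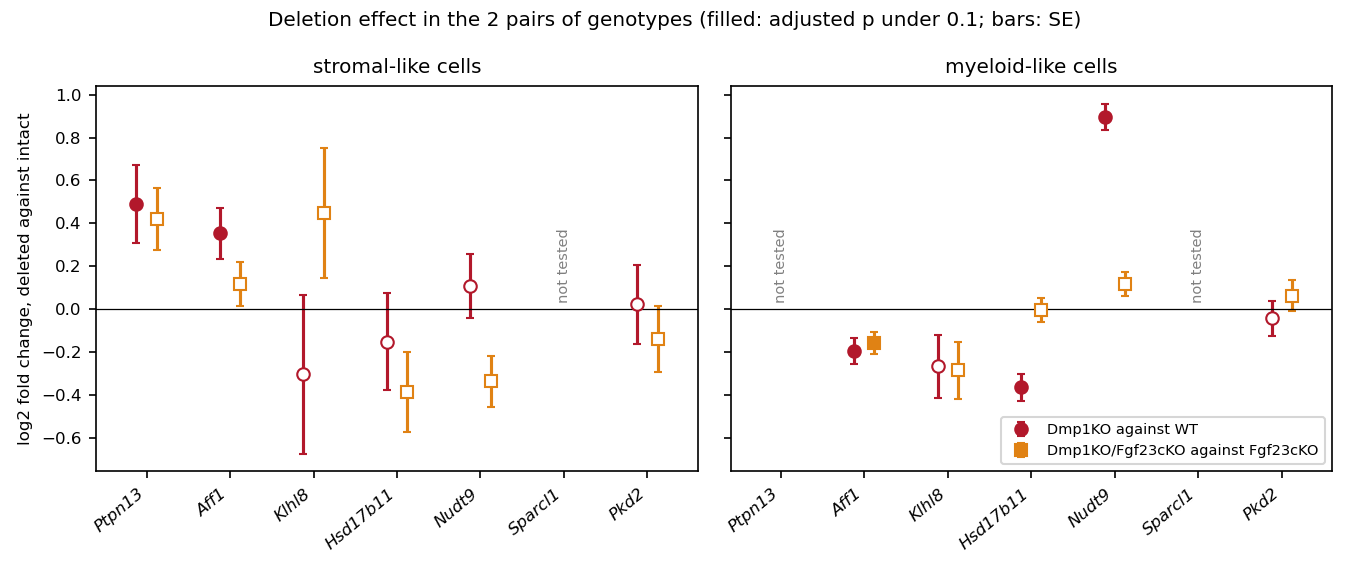
Log2 fold change (bars, SE from edgeR) of each flanking gene in Dmp1KO against WT (circles) and Dmp1KO/Fgf23cKO against Fgf23cKO (squares), filled where the adjusted p was under 0.1. Nudt9 of myeloid-like cells stands at 0.90 and 0.12 and Hsd17b11 at -0.36 and -0.0046, while Ptpn13 of stromal-like cells stands at 0.49 and 0.42.

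The contrast of the Fgf23 deletion, over the same cultures, called flanking genes too. By the genotypes it sets cultures with Dmp1-cre against those without, all Fgf23 fl/fl. Effects of the transgene and of the loss of Fgf23 cannot be told apart in it. In stromal-like cells Nudt9 rose by 0.32 on the log2 scale (edgeR adjusted p = 0.0903) and Aff1 fell by 0.27 (adjusted p = 0.0868), 2 of 6 against 7.65% of all genes. Ptpn13 had a larger value there, 0.35 (SE 0.12), but was not called (edgeR adjusted p = 0.125). In myeloid-like cells Nudt9 (0.25), Pkd2 (0.18) and Aff1 (0.36) rose, 3 of 5 against 56.4% of all genes, each with an edgeR adjusted p under 0.1. In this comparison and in that of the Dmp1 deletion, the myeloid-like cells of the genotypes lay in different clusters. Cluster 1 held 76.9% of the WT cells, cluster 0 held 62.8% of the Fgf23cKO and 83.5% of the Dmp1KO/Fgf23cKO cells, and the Dmp1KO cells were spread over clusters 3, 4, 2 and 0 with 28.7, 24.6, 24.0 and 19.8%. The part of these states in the members' values was not tested.

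No flanking gene separated the 5 deleted from the 6 intact cultures in CPM (0 of 14 sets of values, 7 genes in 2 classes), against 2.51% of the genes tested in stromal-like and 6.87% in myeloid-like cells. The exact permutation p values over 14 tests began at 0.0130 for Ptpn13 in stromal-like cells, followed by Nudt9 in myeloid-like cells at 0.0455, Aff1 in stromal-like cells at 0.0476 and Klhl8 in myeloid-like cells at 0.0498. After adjustment over the 14 none was under 0.139.

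The effect of the deletion itself was compared between classes. Over all 14833 genes 8.45% differed. Aff1 (0.42, SE 0.08, edgeR adjusted p = 0.00570) had a higher value in stromal-like cells, and Nudt9 a lower one (-0.61, SE 0.09, adjusted p = 5.53e-04). Klhl8 (0.39, adjusted p = 0.367), Hsd17b11 (-0.08, adjusted p = 0.845) and Pkd2 (-0.07, adjusted p = 0.855) were not called. The value of Ptpn13 rests on its 71 UMIs in myeloid-like cells. All 27 myeloid markers were detected in the stromal-like sums, at 3224 to 7295 CPM together, and at least 33 of 35 stromal markers in the myeloid-like sums, at 208 to 217 CPM in WT, 317 to 341 in Fgf23cKO, 146 to 155 in Dmp1KO and 492 to 517 in Dmp1KO/Fgf23cKO. The part of RNA of the other class in these values was not tested.

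Along the chromosome, calls were set by distance from Dmp1. Of the genes within 1 Mb, 4 of 12 tested in stromal-like cells were called over both pairs (33.3%, against 16.4% on other chromosomes), and 10 of 14 in myeloid-like cells (71.4%, against 59.6%). Within the pairs the share was not higher near Dmp1 in 3 of 4 cases. In Dmp1KO against WT it was 25% against 25.1% in stromal-like and 64.3% against 69.5% in myeloid-like cells. In Dmp1KO/Fgf23cKO against Fgf23cKO it was 28.6% against 29.6% in myeloid-like cells, and 1 of 12 genes (8.33%, against 1.98%) in stromal-like cells. Beside the flanking genes, the calls over both pairs in stromal-like cells were Ibsp (-1.32) and Spp1 (-0.56), SIBLING genes for bone sialoprotein and osteopontin. In myeloid-like cells they were Ibsp (-1.31), Spp1 (1.71), BC005561 (0.20), Zfp951 (-0.30), the transporter gene Abcg3 (-1.22) and the guanylate-binding protein gene Gbp8 (-0.54). The fitted sizes of the flanking genes tested, at most 0.51, were smaller than those of Ibsp, Spp1 and Abcg3, which lie between 96.6 and 780 kb above Dmp1. The values of Ibsp and Spp1 are averages over pairs that differed. Spp1 of myeloid-like cells stood at 3.20 in Dmp1KO against WT and 0.21 in Dmp1KO/Fgf23cKO against Fgf23cKO, and Ibsp at -2.36 and -0.26. Spp1 of stromal-like cells stood at 0.16 and -1.27 in the same pairs, and Ibsp at -2.10 and -0.54.

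A stricter count took genes called in the same direction in both pairs of genotypes, which share no culture. This count was chosen after the data had been seen, as were the split by side of Dmp1, the windows, the single chromosomes and the size limit below. In myeloid-like cells it held 3 of 14 genes within 1 Mb (21.4%: Aff1, Ibsp and BC005561), 9 of 51 from 1 to 5 Mb (17.6%), 12 of 64 from 5 to 10 Mb (18.8%) and 25 of 170 from 10 to 20 Mb (14.7%). It held 57 of 565 on the rest of chromosome 5 (10.1%) and 1112 of 12610 on other chromosomes (8.82%). Of the 3 genes within 1 Mb, Ibsp held 5.40 to 57.1 CPM in myeloid-like against 3252 to 29396 in stromal-like cells. The part of stromal RNA in its myeloid-like values was not tested. Within 20 Mb the share was 17.2% above Dmp1 (40 of 232 genes) and 13.4% below it (9 of 67), where 6 of the 7 flanking genes lie. Over 51 windows of 20 Mb with at least 100 tested genes on other chromosomes the share ran from 2.54 to 13.5%, with a median of 8.51%. With a log2 change of at least 0.5 in both pairs also required, the share above Dmp1 was 8.19%, which is within the 0 to 9.62% of those windows. Among single chromosomes in myeloid-like cells, chromosome 13 had a higher share than chromosome 5. The shares were 13.5 against 12.3%, and 5.46 against 4.75% with the size limit. In stromal-like cells 3 genes within 20 Mb met the stricter count (Lrrc8d, Gltp and Anapc5), all above Dmp1.

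**Figure D3:**
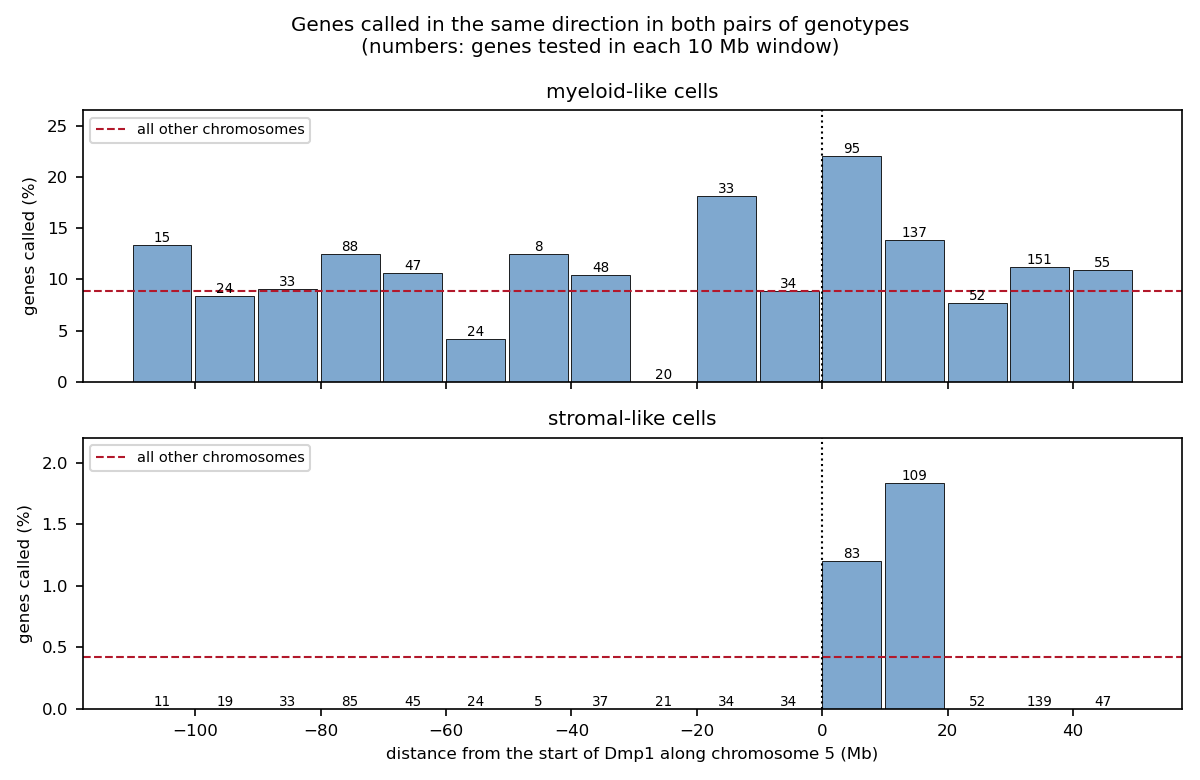
Percentage of tested genes called in the same direction in both pairs, in windows of 10 Mb along chromosome 5 from the start of Dmp1 (dotted line), with the number of genes tested over each bar and the share on all other chromosomes as a dashed line. In myeloid-like cells the window from 0 to 10 Mb stands highest at 22.1%, followed by that from -20 to -10 Mb at 18.2% with 33 genes.

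Genes with the clearest separation lay farther out than the 7. Within 20 Mb of Dmp1, 15 genes of myeloid-like cells were called in both pairs with log2 changes of at least 0.5 and deleted cultures apart from intact ones, 7 higher and 8 lower. All lay 4458 to 18930 kb above Dmp1, where 232 genes were tested, and 0 of 67 tested below it met this. By distance on both sides, it was met by 0 of 14 genes up to 1 Mb, 1 of 51 from 1 to 5 Mb (1.96%), 5 of 64 from 5 to 10 Mb (7.81%) and 9 of 170 from 10 to 20 Mb (5.29%). The same was met by 16 of 565 genes on the rest of chromosome 5 (2.83%) and by 291 of 12610 on other chromosomes (2.31%). At the last share few of 67 genes would meet it. The range of this count over windows of other chromosomes is not given here. Some of the 15 were sparse, 1 of them with 17 UMIs in deleted and 40 in intact cultures. The following were named after their values were seen. Gltp, a glycolipid transfer protein gene 10488 kb above Dmp1, fell in both classes and alone of the 15 was called in both pairs in each class. In myeloid-like cells it held 239.9, 227 and 224 CPM in WT, 198, 199 and 192 in Fgf23cKO, 83.2 and 83.9 in Dmp1KO, and 121, 124 and 119.6 in Dmp1KO/Fgf23cKO cultures. Its log2 fold changes in the pairs were -1.21 and -0.73 in myeloid-like and -1.21 and -0.63 in stromal-like cells (edgeR adjusted p at most 0.0271). Idua, the lysosomal enzyme alpha-L-iduronidase 4458 kb above Dmp1, fell in myeloid-like cells by 1.75 and 0.78, from 24.4 to 37.2 CPM in intact to 8.57 to 16.3 in deleted cultures. The gene 1500011B03Rik, 10621 kb above Dmp1, rose there by 1.13 and 0.80, from 19.1 to 22.7 CPM in intact to 35.9 to 38.4 in deleted cultures, and in stromal-like cells its cultures overlapped (0.35 and 0.06, edgeR adjusted p = 0.290 and 0.915). Oasl1, of the interferon-induced oligoadenylate synthetase family, 10721 kb above Dmp1, rose in myeloid-like cells by 1.36 and 1.62. In stromal-like cells, where it was not tested, it held 3 UMIs in deleted cultures (0 to 0.331 CPM) and 11 in intact ones (0.419 to 2.13 CPM), the other way round.

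**Figure D4:**
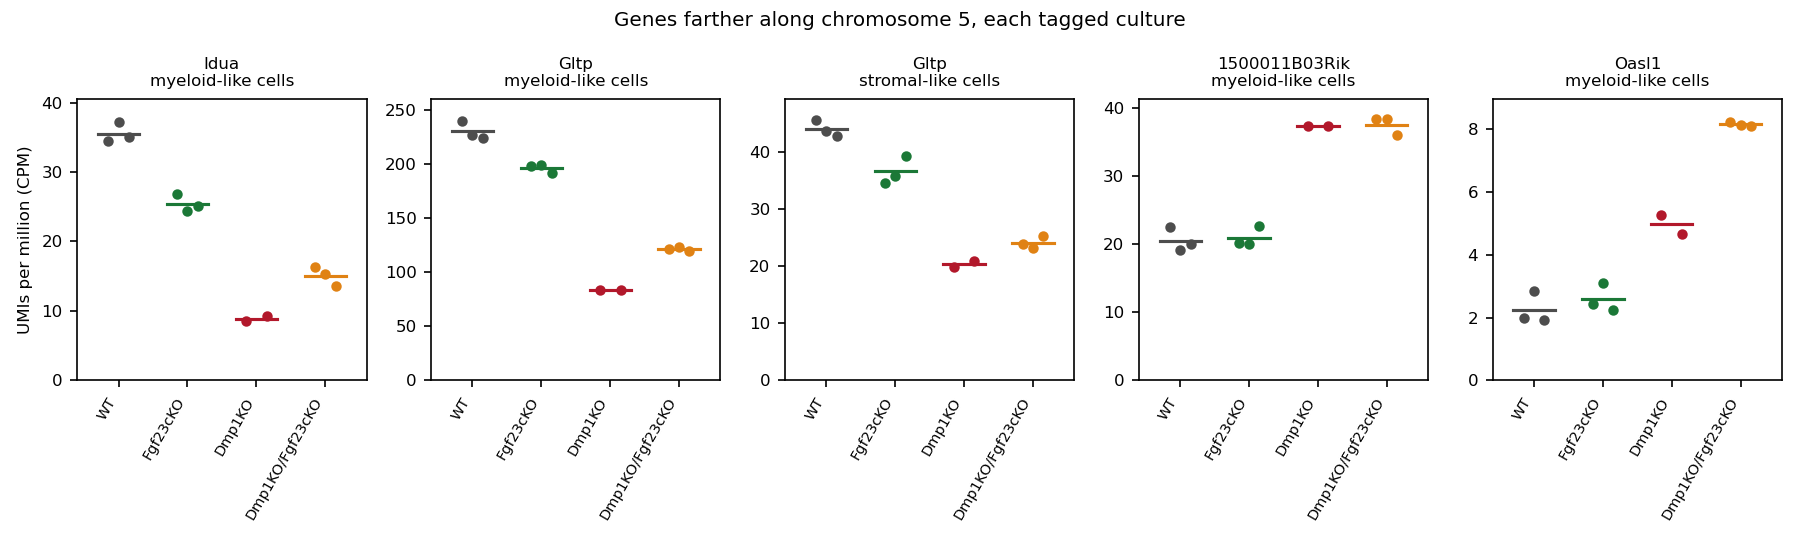
CPM, in the cell class named over each panel (myeloid-like for Idua, Gltp, 1500011B03Rik and Oasl1, and stromal-like also for Gltp), of 4 genes that lie 4458 to 10721 kb above Dmp1, 1 point per tagged culture and a bar at the genotype mean. Deleted cultures lie apart from intact ones in each of the 5 panels shown.

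Some genes followed the flanking genes across the 11 cultures, by Pearson's r of log2(CPM + 1) over all genes tested, in the class where the gene had more UMIs. The closest were Mvb12a to Nudt9 (r = 0.993), Homer1 to Pkd2 (0.984), Sp3 to Hsd17b11 (0.988), Ifitm5 to Klhl8 (0.933) and Glg1 to Aff1 (0.991) in myeloid-like cells, and Ncaph2 to Ptpn13 (0.939) in stromal-like cells. Of the 3 closest genes of each, Bmp2k, second for Pkd2 (0.979), lies on chromosome 5, at -7205 kb from the start of Dmp1, and the others lie on other chromosomes. The 11 cultures fall into 4 genotypes with 1 reaction each, so these values follow genotype means and carry no test.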

How the data were processed

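Single-cell RNA of cultured bone marrow stromal cells from 4 mouse genotypes was sequenced with 1 droplet reaction per genotype, and cultures were told apart by cell tags. The authors deposited raw UMI counts per gene and cell, and their processing notes name Cell Ranger 7.0.1, Seurat and mm10. No source used here states whether intronic reads were counted. Untagged cells entered only the alternative that adds them.

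Cells were clustered with Seurat 5.3.0 and sctransform 0.4.2 (3000 variable genes, 30 components, resolution 0.8), and no doublet caller was run. Aff1, Ptpn13 and Dmp1 were among the variable genes. Counts were summed per culture and class where at least 10 cells were present, and tested with edgeR 4.0.16 (R 4.3.3, TMM scaling, expression filter, quasi-likelihood test, 1 fit over 4 genotypes, Benjamini-Hochberg adjustment, threshold 0.1). Single genes were compared by exact two-sided permutation tests of log2(CPM + 1) over 5 deleted and 6 intact cultures. The tests were checked on simulated counts. Gene positions came from the GRCm38 annotation, the same build as mm10, in which 32158 of 32285 gene identifiers were found. By rule the text names the 7 flanking genes, Dmp1, the SIBLING genes, tested genes within 1 Mb, the 3 most alike genes of each, Nnt and Malat1, while Gltp, Idua, 1500011B03Rik, Oasl1, Gm13832, Lrrc8d and Anapc5 were named after their values were seen. The genes, lists and tests were chosen with earlier results of these data known. Alternatives were DESeq2 1.42.0, other scalings, filters, cell classes and thresholds, a replicate block, and leaving out each culture. Intervals and floors cover counting error only.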

Additional observations from a re-analysis of the deposited data

Results flagged for a closer look

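Differences between groups under the same contrast drew attention to 5 values. In myeloid-like cells the effect of the Dmp1 deletion differed with the Fgf23 genotype for Nudt9 by -0.78 on the log2 scale (edgeR adjusted p = 2.91e-06) and for Hsd17b11 by 0.36 (adjusted p = 0.00199). Between cell classes, stromal-like less myeloid-like, the effect differed for Ptpn13 by 1.30 (edgeR adjusted p = 0.0428), for Aff1 by 0.42 (adjusted p = 0.00570) and for Nudt9 by -0.61 (adjusted p = 5.53e-04). With a block for the culture, which both classes share, these 3 were 1.35, 0.42 and -0.61 (edgeR adjusted p = 0.0410, 0.0254 and 0.00906). Ptpn13 was too low for the test in myeloid-like cells alone, so no difference between classes is read from its values. The difference of Hsd17b11 by Fgf23 genotype was not called when all cells were summed without regard to class (0.21, adjusted p = 0.150).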

How the results depend on the processing

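Of 409 values of the flanking genes under alternatives other than leaving out a culture, 351 kept direction and call, 27 lost the call, 11 gained it and 20 reversed, and of 385 with a culture left out these were 341, 24, 5 and 15. No reversed value had been called. Reversed log2 values of Pkd2 were 0.0037 (library totals) and 0.0055 (replicate block) over both pairs in stromal-like cells, -0.15 (untagged cells added) and -0.21 (without osteoblast clusters) for Dmp1KO against WT, and 0.050 (without osteoblast clusters) for Dmp1KO/Fgf23cKO against Fgf23cKO. In myeloid-like cells they were -0.10 (library totals) and -0.0748 (all cells) over both pairs, 0.067 (no filter), 0.0082 (classes set cell by cell from marker shares) and 0.012 (wide class) for Dmp1KO against WT, and -0.039 (all cells) for the other pair. Klhl8 gave -0.15 over both pairs and Nudt9 -0.074 for Dmp1KO against WT in stromal-like cells, with untagged cells and with classes set cell by cell. Hsd17b11 of myeloid-like cells in Dmp1KO/Fgf23cKO against Fgf23cKO gave 0.016 (RLE), 0.032 (library totals), 0.023 (no filter), 0.015 (DESeq2), 0.025 (classes set cell by cell), 0.019 (all cells) and 0.027 (wide class). With a culture left out, values crossing 0 ran from -0.022 to 0.049 (Pkd2, both pairs) and -0.030 to 0.024 (Hsd17b11) in myeloid-like cells, from -0.070 to 0.15 (Klhl8, stromal-like), -0.10 to 0.15 (Pkd2, stromal-like), -0.0045 to 0.22 (Nudt9, stromal-like) and -0.079 to 0.0077 (Pkd2, myeloid-like, Dmp1KO against WT). The causes were not tested.

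Counts of called genes in stromal-like cells were 2039 (both pairs), 3124 (Dmp1KO against WT), 248 (Dmp1KO/Fgf23cKO against Fgf23cKO), 2303 (difference by Fgf23 genotype) and 951 (Fgf23 deletion). At a threshold of 0.05 they were 1245, 76, 1407 and 506 for all but the second. Without osteoblast clusters the second was 1882 and the fourth 1109. The third was 620 without a filter, 161 with the flanking genes out of clustering and 922 with untagged cells, which gave 3743 and 1996 for the last 2. With a culture left out the 5 ranged from 990 to 2201, 1521 to 3294, 45 to 264, 1152 to 2240 and 318 to 1025. In myeloid-like cells they ranged from 7131 to 8286, 8282 to 9612, 2548 to 4468, 7502 to 8505 and 6468 to 7974. With library totals the median of all genes moved to -0.10 in myeloid-like cells and 0.05 in stromal-like cells, and the share of calls that were higher went from 51.5 to 34.1% and from 45.0 to 61.4%. The excess of calls within 1 Mb over other chromosomes, 11.8 percentage points in myeloid-like and 16.9 in stromal-like cells, was -5.26 and -0.13 in Dmp1KO against WT, -0.99 and 6.36 in the other pair, and 12.6 and -0.42 for the same direction in both. Library totals, the wide myeloid class and the same-direction count were chosen after the data had been seen.

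Replicate numbers did not pair the cultures: deviations of same-numbered cultures correlated at -0.146 to 0.136 in stromal-like and -0.218 to 0.145 in myeloid-like cells over 15 pairs each. A replicate block gave 103 and 552 calls for Dmp1KO/Fgf23cKO against Fgf23cKO and for the Fgf23 deletion in stromal-like cells. Sparcl1 in both classes and Ptpn13 in myeloid-like cells held too few UMIs for the test.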

Other observations

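Gm13832, named after its values were seen and 11156 kb above Dmp1, held 5 UMIs in the intact and 268 in the deleted cultures of myeloid-like cells, 0 to 0.174 against 0.834 to 2.47 CPM. In stromal-like cells its cultures overlapped, at 28.1 to 46.9 CPM when intact and 31.5 to 59.2 CPM when deleted.

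Nnt, which C57BL/6J carries as a deletion allele, stood at 3.06 to 4.42 CPM in WT, 2.31 to 4.0 in Fgf23cKO, 0.890 to 1.18 in Dmp1KO and 2.35 to 2.54 in Dmp1KO/Fgf23cKO cultures of myeloid-like cells. The name of the Dmp1-cre line holds other strains, and the part of strain in these values was not tested. Malat1, a nuclear RNA, stood at 24159 to 24598 CPM of all cells in WT, 13879 to 15719 in Fgf23cKO, 11323 to 11605 in Dmp1KO and 12887 to 13140 in Dmp1KO/Fgf23cKO cultures.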
